A study of Mus musculus with 95 samples.

Results

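Abhd1 and its 4 neighbours Preb, Cgref1, Khk and Tcf23 lie side by side on mouse chromosome 5, and their RNA was followed in heterozygous zQ175 knock-in mice and wild-type littermates. These 5 genes, of 39179 in the deposited count table, were selected on earlier results for the same libraries: Abhd1 was chosen by its difference between Het and wild-type animals in both lines and all 3 tissues, and the other genes by their position beside it. Values for the Het against wild-type contrast are therefore given for these genes as a description, without a test.

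The zQ175 mouse models Huntington's disease by an expanded CAG repeat in the endogenous huntingtin gene, Htt. In the neo-out line (CHDI-81003019, Z_Q175 (neo-) KI) the neo selection cassette is absent, and in the neo-in line (CHDI-81003003, z_Q175 KI) it is present. The groups were neo-out Het, neo-out wild type, neo-in Het and neo-in wild type, each with 4 female and 4 male animals aged 6 months, on a C57BL6/J background, and wild types were housed with Het animals of their own line. Striatum and cortex of the left hemisphere and the left liver lobe of the 32 animals gave 95 mRNA libraries, because the neo-out Het male group has 3 striatum libraries. Every Het animal carried 1 knock-in and 1 wild-type Htt allele, and both lines' wild types carried none.

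ABHD proteins share an alpha/beta hydrolase fold, and several act as lipases or thioesterases. Abhd1 is annotated by GENCODE M21 as a processed transcript and by RefSeq as a transcribed pseudogene in the mouse reference genome. Preb (prolactin regulatory element binding) encodes the exchange factor for the GTPase Sar1 that starts COPII coat assembly at the endoplasmic reticulum. Cgref1 encodes a secreted cell growth regulator with EF-hand motifs. Khk encodes ketohexokinase, which phosphorylates fructose and is best known from liver. Tcf23 encodes a basic helix-loop-helix transcription factor.

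All 5 genes lie within chr5:30921431-30977018 (GENCODE M21 on GRCm38, the assembly also called mm10). From low to high coordinates, Khk is at chr5:30921431-30931248 on the plus strand, Cgref1 at chr5:30933143-30945591 on the minus strand and Abhd1 (ENSMUSG00000006638) at chr5:30950066-30955091 on the plus strand. Preb follows at chr5:30950853-30960361 on the minus strand and Tcf23 at chr5:30968662-30977018 on the plus strand. The Abhd1 start is 3.81 Mb before the start of Htt, the gene carrying the knock-in allele. Preb overlaps Abhd1 on the opposite strand: 84.3% of the Abhd1 locus lies inside the Preb locus, and 1575 of 1758 annotated exonic bases of Abhd1 (89.6%) are also exonic in Preb. The Abhd1-201 transcript model is split at a gap of 1 base, at position 30954155.

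4 of the 5 genes matched the RefSeq promoter table (GRCm38.p6), which gives 250 bases before and 50 after a gene's start. Windows of 2 genes are shown: that of Preb, whose transcription runs into Abhd1 from the other side, and that of Khk, the gene whose level differed most between tissues. Capitals mark matches on either strand to the GC box (GGGCGG), the CCAAT box (CCAAT) or the TATA box (TATAAA), and each window shown holds 1 match, so that no matches overlap.
Preb, chr5:30960278-30960577, minus strand: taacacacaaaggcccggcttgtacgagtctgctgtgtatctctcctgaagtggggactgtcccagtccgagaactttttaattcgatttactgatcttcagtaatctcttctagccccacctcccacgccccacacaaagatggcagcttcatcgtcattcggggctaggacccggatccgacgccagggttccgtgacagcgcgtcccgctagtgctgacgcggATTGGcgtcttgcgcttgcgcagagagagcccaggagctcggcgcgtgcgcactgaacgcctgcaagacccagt
Khk, chr5:30921309-30921608, plus strand: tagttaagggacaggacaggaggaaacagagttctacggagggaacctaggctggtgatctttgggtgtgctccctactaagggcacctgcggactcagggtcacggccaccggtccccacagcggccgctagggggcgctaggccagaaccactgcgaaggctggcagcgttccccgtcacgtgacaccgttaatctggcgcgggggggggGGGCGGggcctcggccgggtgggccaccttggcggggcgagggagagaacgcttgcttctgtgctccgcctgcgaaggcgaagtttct
The Preb window held 1 CCAAT box, no GC box and no TATA box, and the Khk window held 1 GC box and neither of the others. Among the 32851 promoter windows of the table, 37.4% held a CCAAT box, 35.7% a GC box and 13.6% a TATA box. CpG pairs numbered 24 in the Preb window and 23 in the Khk window, more than in 80.0% and 78.5% of all windows. Both Cgref1 windows of the table held 3 GC boxes, and the Tcf23 window held 7 CpG pairs and none of the 3 motifs.

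Expected counts per library, in units of M (mega), totalled 31.1 to 43.05 M in striatum, 31.02 to 43.99 M in cortex and 33.1 to 68.4 M in liver. The labelled tissues carried their defining markers: the 6 hepatocyte genes summed to 82682 to 115918 CPM in Het livers and 79555 to 110923 CPM in wild-type livers, against at most 22.45 CPM in any brain library. Htt, the targeted gene, was lower on average in Het than in wild-type groups in each tissue and line, with log2 differences of -0.23 ± 0.05 (SE) in neo-out and -0.39 ± 0.05 in neo-in striatum, -0.31 ± 0.03 and -0.37 ± 0.03 in cortex, and -0.49 ± 0.07 and -0.57 ± 0.07 in liver. Of the libraries, 6 striatum and 5 cortex libraries had over 5 times the tissue median of Slc17a7, a cortical neuron marker, of Drd2, a striatal one, or of Ttr, a choroid plexus marker. Of the 6 striatum libraries, 4 were neo-out wild types, and for Het against wild type the calls and values in brain that changed without these libraries are given both ways. In whole tissue, fewer cells of a type and less RNA per cell cannot be told apart.

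Abhd1 RNA was low in every wild-type tissue and higher in every Het library. Levels are in CPM, a gene's count relative to its library's total, scaled within a tissue by the trimmed mean of M values (TMM). In striatum, Abhd1 ranged from 4.58 to 5.93 CPM (median 4.99, n = 7) in neo-out Het animals and from 1.72 to 2.20 CPM (median 1.93, n = 8) in neo-out wild types. Neo-in striatum held 4.37 to 6.28 CPM (median 5.37) in Het and 1.54 to 2.5 CPM (median 2.17) in wild-type animals (n = 8 each). No Het striatum overlapped a wild-type one in either line. Cortex was alike in the neo-out line, with 4.13 to 6.12 CPM (median 5.46) in Het and 1.19 to 2.09 CPM (median 1.47) in wild-type animals. In neo-in cortex, Abhd1 ranged from 4.07 to 6.09 CPM (median 5.17) in Het and from 1.12 to 2.12 CPM (median 1.60) in wild-type animals (n = 8 each).

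Liver had the widest separation. Abhd1 ranged from 17.5 to 25.5 CPM (median 21.6) in neo-out Het livers and from 1.16 to 2.16 CPM (median 1.42) in neo-out wild-type livers (n = 8 each). Neo-in livers held 13.8 to 25.5 CPM (median 23.2) in Het and 1.69 to 2.35 CPM (median 1.94) in wild-type animals (n = 8 each). Wild-type libraries of all 3 tissues lay within 1.12 to 2.5 CPM, each scaled within its own tissue, and Het brain libraries did not exceed 6.28 CPM. These values rest on 485 to 1067 expected counts per library in Het livers, 130 to 237 in Het brain and 42.8 to 106 in wild-type libraries of any tissue.

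**Figure D1:**
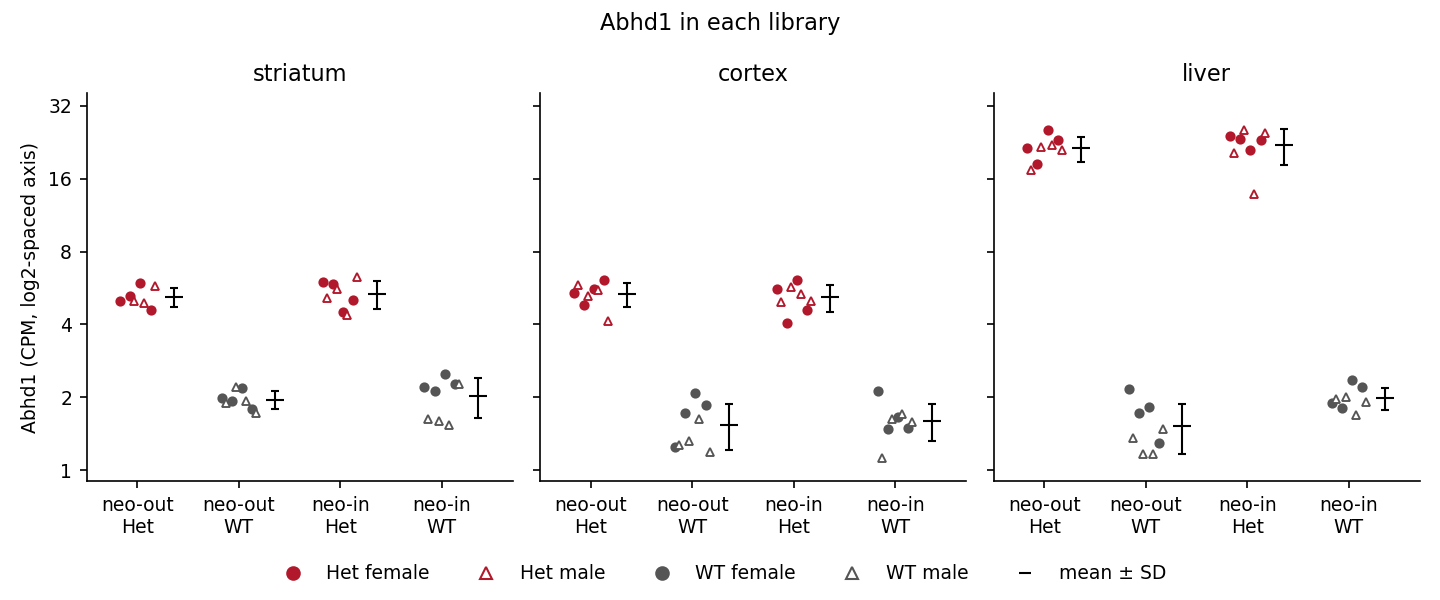
Abhd1 in each library in CPM on a log2-spaced axis, by tissue and group; filled circles are females, open triangles males, and bars the mean ± SD of 7 or 8 libraries. Het libraries lie between 4.07 and 6.28 CPM in brain and between 13.8 and 25.5 CPM in liver, above all wild-type libraries.

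Fitted log2 differences of Het against wild type for Abhd1 were 1.41 ± 0.10 (SE) in neo-out and 1.42 ± 0.09 in neo-in striatum, 1.8 ± 0.11 and 1.70 ± 0.11 in cortex, and 3.82 ± 0.12 and 3.47 ± 0.11 in liver. As ratios of group means these were 2.66-fold and 2.65-fold in striatum, 3.46-fold and 3.24-fold in cortex, and 14.02-fold and 11.1-fold in liver. When genes averaging under 1 CPM were set aside, Abhd1 ranked 1 of 12157 by upward difference in liver in both lines, 2 and 4 of 14505 in neo-out and neo-in cortex, and 4 and 6 of 14583 in neo-out and neo-in striatum. The genes ahead of it in cortex were Alb in neo-out and Gm26527, Ttr and Alb in neo-in, of which Alb is a hepatocyte and Ttr a choroid plexus marker. By size in either direction, Abhd1 ranked 1 in both lines in liver, and 4 and 6 in neo-out and neo-in cortex. In neo-out and neo-in striatum it ranked 27 and 25 by size. Since this difference chose Abhd1, nothing is read from these ranks. With the 5 genes set aside, 1 gene in liver, Htt, was called in both lines in the same direction at an adjusted p under 0.05 by edgeR's quasi-likelihood test. In cortex 135 genes were, and in striatum 2097 were. The share of all genes tested that met this criterion was 11.9% in striatum, 0.78% in cortex and 0.0132% in liver.

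As background for these counts, 18% of all genes tested were called in neo-out striatum and 19.4% in neo-in striatum, 2.8% and 1.67% in neo-out and neo-in cortex, and 0.533% and 0.539% in neo-out and neo-in liver. Het and wild-type libraries did not overlap for 4.47% of genes in neo-out and 4.62% in neo-in striatum, 0.665% and 0.252% in cortex, and 0.105% and 0.0395% in liver. Abhd1 was among the genes without overlap in all 6 comparisons, and none of Preb, Cgref1, Khk and Tcf23 was in any, where tested. Since this contrast chose the genes, nothing is read from these shares. Leaving out the libraries high in markers of another tissue gave Abhd1 log2 differences of 1.46 ± 0.14 and 1.43 ± 0.10 in neo-out and neo-in striatum and 1.74 ± 0.10 and 1.76 ± 0.12 in cortex.

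The deposited counts of the overlapping genes Abhd1 and Preb were fractional, while their sum was whole. The expected count of Abhd1 was whole, within 0.001, in 1 of 95 libraries and that of Preb in 1, but their sum was whole in all 95. Cgref1 and Tcf23 had whole counts in all 95 libraries and Khk in 90. Fractions that add up to whole counts mean that some reads were divided between Abhd1 and Preb, so each level depends on that division. Whether reads were counted by strand is not given in the sources used here, so reads of Abhd1 and Preb may not have been told apart by strand. Abhd1 made up 20.1% ± 2.36 of the summed CPM of both genes in neo-out Het livers and 1.76% ± 0.58 in neo-out wild-type livers (SD, n = 8 each), and 21.6% ± 5.78 and 2.30% ± 0.49 in neo-in Het and wild-type livers. In brain its share was between 6.19% and 9.10% in Het and between 1.61% and 3.61% in wild-type libraries, without overlap.

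The summed level of both genes was described in the same way. It averaged 106.2 ± 5.74 CPM in neo-out Het livers and 88.7 ± 9.35 CPM in neo-out wild-type livers, and 106 ± 19.8 CPM in neo-in Het livers and 88.2 ± 11.7 CPM in neo-in wild-type livers (SD, n = 8 each). Treated as 1 feature, Abhd1 and Preb together had log2 differences of 0.26 ± 0.07 (SE) in both lines in liver, 0.10 ± 0.03 and 0.06 ± 0.03 in neo-out and neo-in striatum, and 0.06 ± 0.04 and 0.01 ± 0.04 in cortex. The mean CPM gap of Het over wild type in liver was 19.8 in neo-out and 20.02 in neo-in for Abhd1, against -2.28 and -2.15 for Preb.

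**Figure D2:**
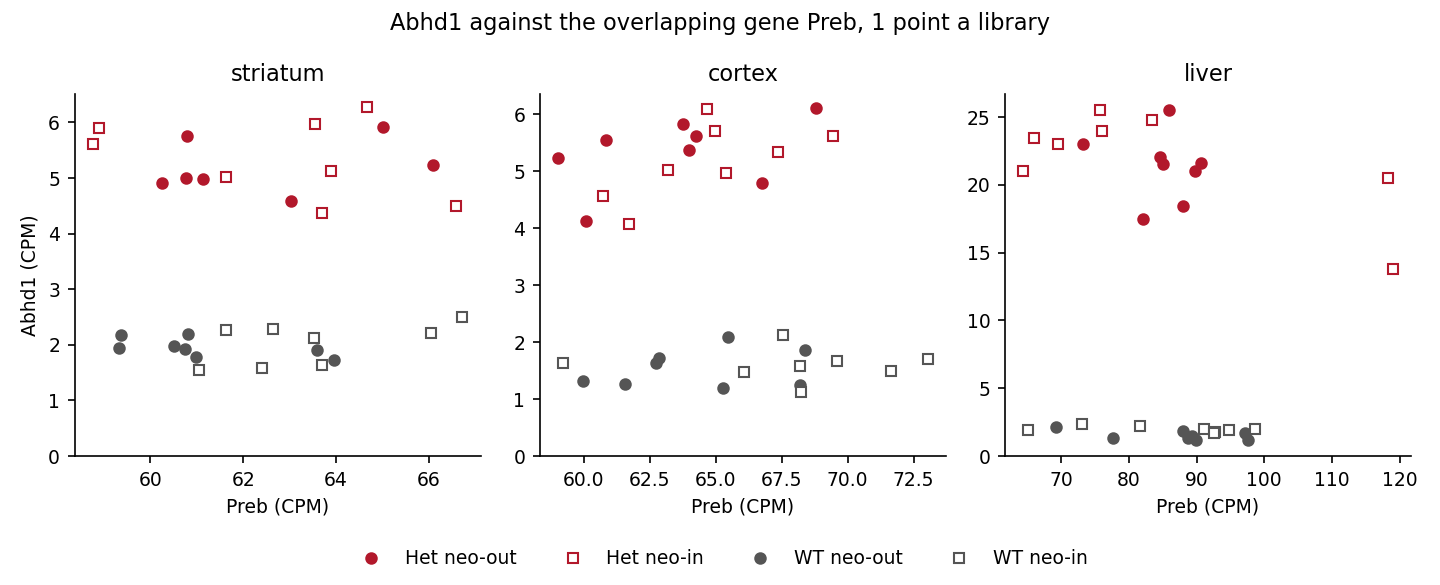
Abhd1 against Preb in CPM, 1 point a library, by tissue; red is Het, grey wild type, filled circles neo-out and open squares neo-in, with Preb axes that do not start at 0. Het and wild-type libraries separate along the Abhd1 axis and overlap along the Preb axis, and 2 neo-in Het livers lie at 118 and 119 CPM of Preb.

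Preb, the COPII exchange factor, was abundant in all tissues and its Het and wild-type libraries overlapped everywhere. Neo-out striatum held 60.3 to 66.1 CPM (median 61.1, n = 7) in Het and 59.3 to 64.0 CPM (median 60.8, n = 8) in wild-type animals, and neo-in striatum held 58.8 to 66.6 CPM in Het and 61.0 to 66.7 CPM in wild-type animals. Liver held 73.2 to 90.6 CPM (median 85.5) in neo-out Het, 69.3 to 97.6 CPM (median 89.0) in neo-out wild-type, 64.4 to 119 CPM (median 75.9) in neo-in Het and 65.1 to 98.6 CPM (median 91.8) in neo-in wild-type animals. The 2 highest livers were neo-in Het males 1 and 3, at 118 and 119 CPM, while the other 2 males of that group held 75.7 and 83.4 CPM. Log2 differences of Het against wild type stayed between -0.07 and 0.02 in all 6 comparisons.

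Those 2 livers also stood low for Abhd1 and Khk among the males of their group. Neo-in Het male 3 held 13.8 CPM of Abhd1, the lowest Het liver, and 157 CPM of Khk, and male 1 held 20.5 CPM of Abhd1 and 178 CPM of Khk. The other males of the group, 2 and 4, had 25.5 and 24.8 CPM of Abhd1 and 242 and 202 CPM of Khk. Leaving out any 1 library kept the neo-in liver log2 difference of Abhd1 between 3.42 and 3.56.

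Cgref1 was mainly a brain transcript in these samples and averaged lower in Het than in wild-type striatum. It ranged from 14.5 to 18.0 CPM (median 15.9, n = 7) in neo-out Het and from 16.2 to 20.7 CPM (median 17.7, n = 8) in neo-out wild-type striatum. Neo-in striatum held 14.3 to 17.6 CPM (median 16.2) in Het and 16.2 to 20.3 CPM (median 18.4) in wild-type animals. The groups overlapped in both lines, with log2 differences of -0.17 ± 0.06 (SE) in neo-out and -0.20 ± 0.06 in neo-in. Without the libraries high in markers of another tissue the difference was -0.07 ± 0.08 in neo-out and -0.20 ± 0.07 in neo-in striatum, and 0.19 ± 0.09 in neo-in cortex. The summed level of 6 striatal projection neuron markers was 1798 to 2356 CPM in Het and 3354 to 4599 CPM in wild-type striatum; 6 of 6 markers passed the filter, and the part of this difference in the Cgref1 values was not tested. In cortex Cgref1 ranged from 9.49 to 13.6 CPM in Het and from 8.38 to 13.55 CPM in wild-type animals of both lines, with log2 differences of 0.12 ± 0.09 and 0.02 ± 0.09 in neo-out and neo-in.

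In liver Cgref1 was low except in neo-in males. Neo-in Het males held 0.31 to 1.84 CPM and neo-in wild-type males 0.65 to 1.94 CPM, whereas all neo-in females and all neo-out livers held at most 0.38 CPM, with 2 to 18 expected counts in the neo-out wild types. In neo-in Het males the 2 high values, 1.84 and 1.48 CPM, were those of males 1 and 3.

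Khk, the fructose kinase, was the gene of the 5 with the highest level in liver. Liver held 170 to 257 CPM (median 236) in neo-out Het and 172 to 249 CPM (median 208) in neo-out wild-type animals, and 157 to 318 CPM (median 222) in neo-in Het and 171 to 228 CPM (median 195) in neo-in wild-type animals. Groups overlapped, and the neo-in Het livers spread more widely than the others, with an SD of 56.3 CPM against 17.1 to 27.2 CPM. In cortex Khk averaged 5.86 ± 0.76 CPM in neo-out Het and 5.10 ± 0.46 CPM in neo-out wild-type animals, and 6.25 ± 0.63 CPM in neo-in Het and 5.36 ± 0.57 CPM in neo-in wild-type animals (SD, n = 8 each). Log2 differences were 0.20 ± 0.08 (SE) and 0.22 ± 0.08 in neo-out and neo-in cortex, -0.03 ± 0.13 and 0.17 ± 0.12 in striatum, and 0.11 ± 0.10 and 0.20 ± 0.10 in liver. The value in neo-out striatum was 0.12 ± 0.17 without the libraries high in markers of another tissue.

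Tcf23, the helix-loop-helix factor, was barely detected. Striatum libraries held 1 to 14 expected counts in Het and 2 to 21 in wild-type animals, and in cortex Het libraries held 9 to 23 and wild-type libraries 9 to 27. Liver libraries held 0 to 11 expected counts in Het and 0 to 13 in wild-type animals, and the gene failed the filter on low counts there. Log2 differences of Het against wild type were -0.14 ± 0.42 (SE) and -0.56 ± 0.39 in neo-out and neo-in striatum and -0.29 ± 0.20 and 0.04 ± 0.20 in cortex, so that changes of this size were not detectable at this depth. They were -0.52 ± 0.55 in neo-out striatum and -0.07 ± 0.25 in neo-in cortex without the libraries high in markers of another tissue.

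**Figure D3:**
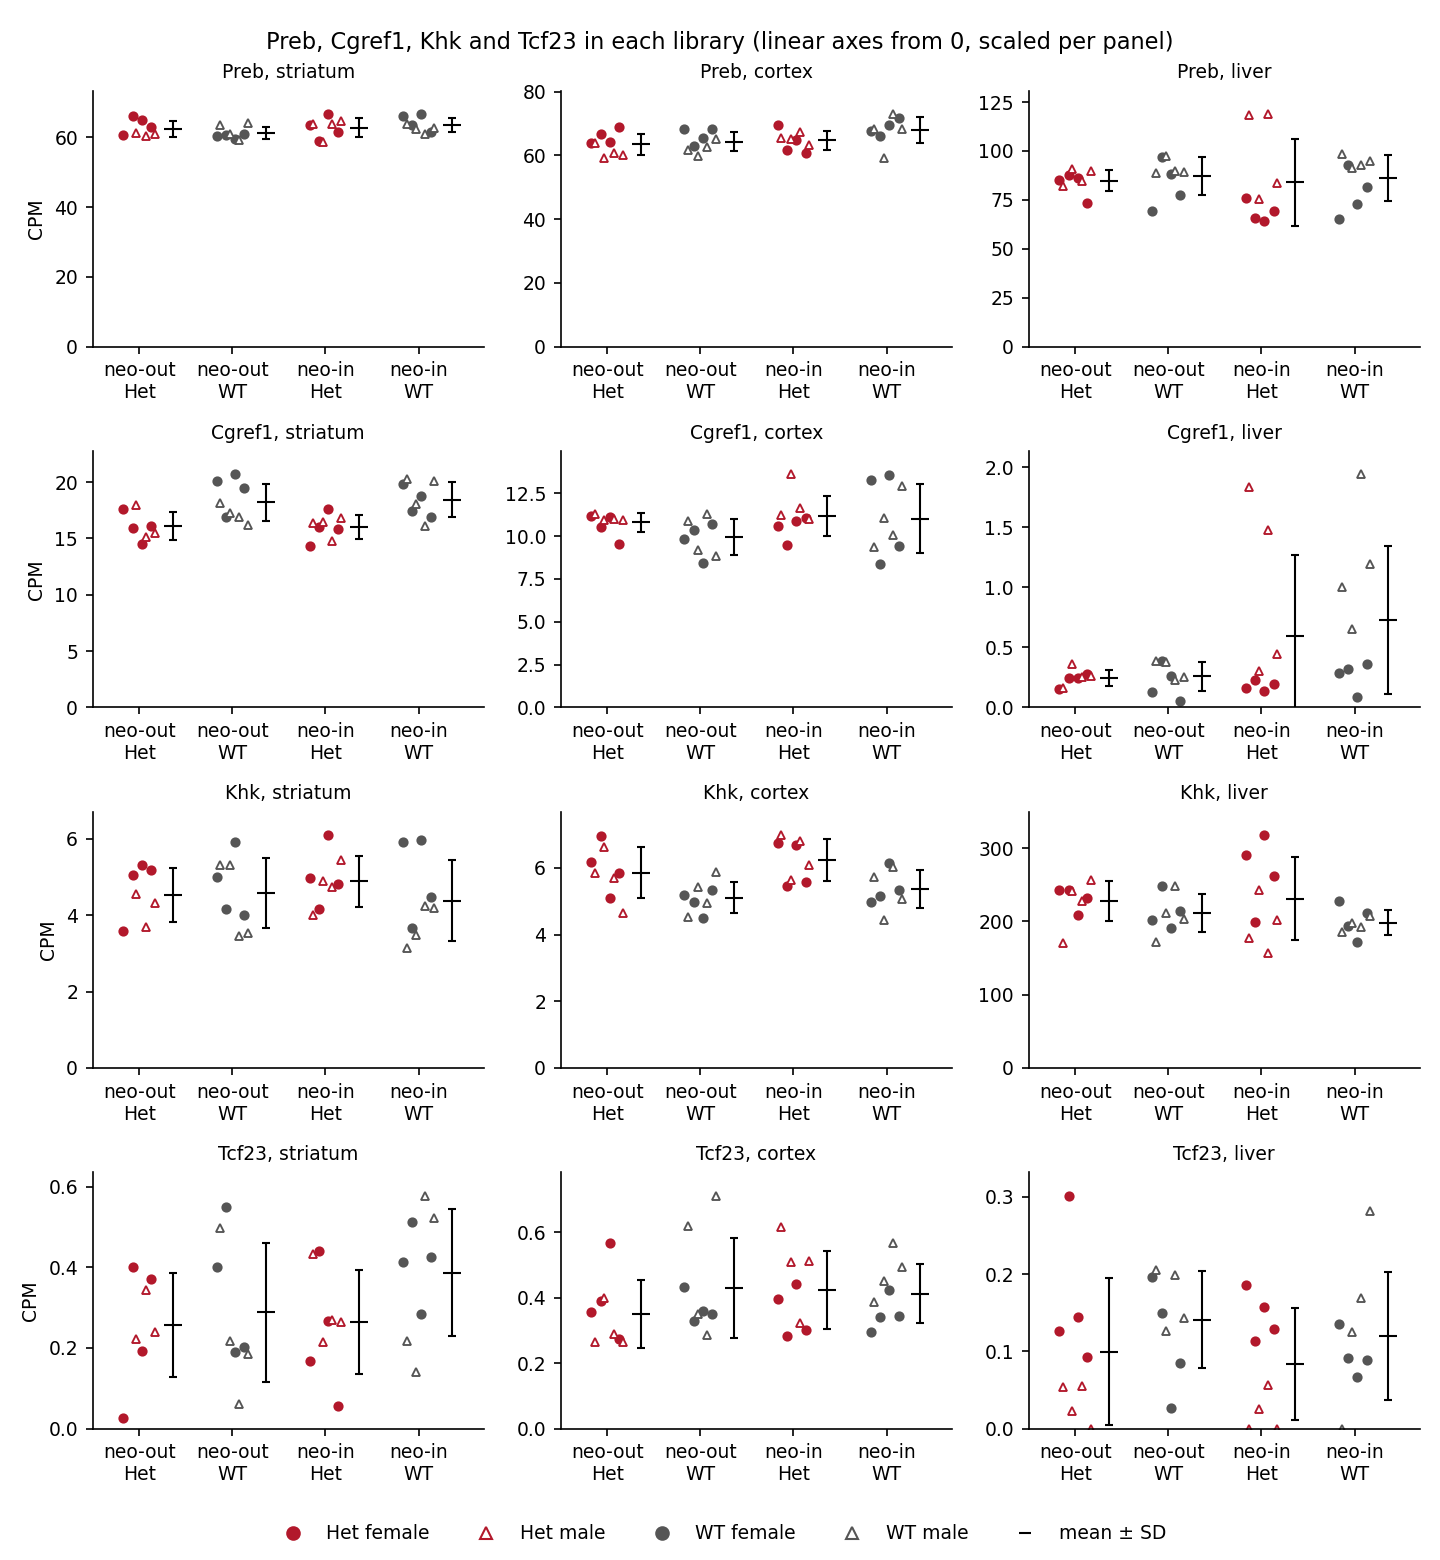
Preb, Cgref1, Khk and Tcf23 in each library in CPM, on linear axes from 0 that differ between panels; symbols are as for Abhd1 (red Het, grey wild type, circles female, triangles male, bars mean ± SD). Het and wild-type libraries overlap in every panel, and 2 neo-in Het male livers lie highest for Preb, at 118 and 119 CPM; the lower SD bar of Cgref1 in neo-in Het liver is cut at 0.

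Per length, in FPKM, the order of the 5 genes differed between tissues. In wild-type striatum Preb came first at 32.5 ± 1.26 FPKM, followed by Cgref1 at 13.6 ± 1.11, Khk at 4.32 ± 1.03, Abhd1 at 1.45 ± 0.20 and Tcf23 at 0.081 ± 0.040 FPKM (SD, n = 16 each). The order was the same in wild-type cortex, with Preb at 36.3 ± 2.60, Cgref1 at 7.85 ± 1.24, Khk at 5.15 ± 0.57, Abhd1 at 1.16 ± 0.21 and Tcf23 at 0.102 ± 0.030 FPKM. In wild-type cortex the ranges of Cgref1 (6.29 to 10.2) and Khk (4.01 to 6.32) touched, while all other neighbours in the order were apart. In wild-type liver Khk led at 148 ± 19.6 FPKM, ahead of Preb at 60.7 ± 5.89, Abhd1 at 1.34 ± 0.36, Cgref1 at 0.364 ± 0.351 and Tcf23 at 0.032 ± 0.017 FPKM. There the ranges of Abhd1 (0.79 to 2.05) and Cgref1 (0.044 to 1.40) overlapped, as did those of Cgref1 and Tcf23. In Het animals Abhd1 reached 4.09 ± 0.50 FPKM in striatum, 4.03 ± 0.45 in cortex and 16.4 ± 2.63 in liver (SD, n = 15, 16 and 16), so that in Het cortex it lay below Khk at 6.20 ± 0.69 FPKM and in Het striatum its range met that of Khk.

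**Figure D4:**
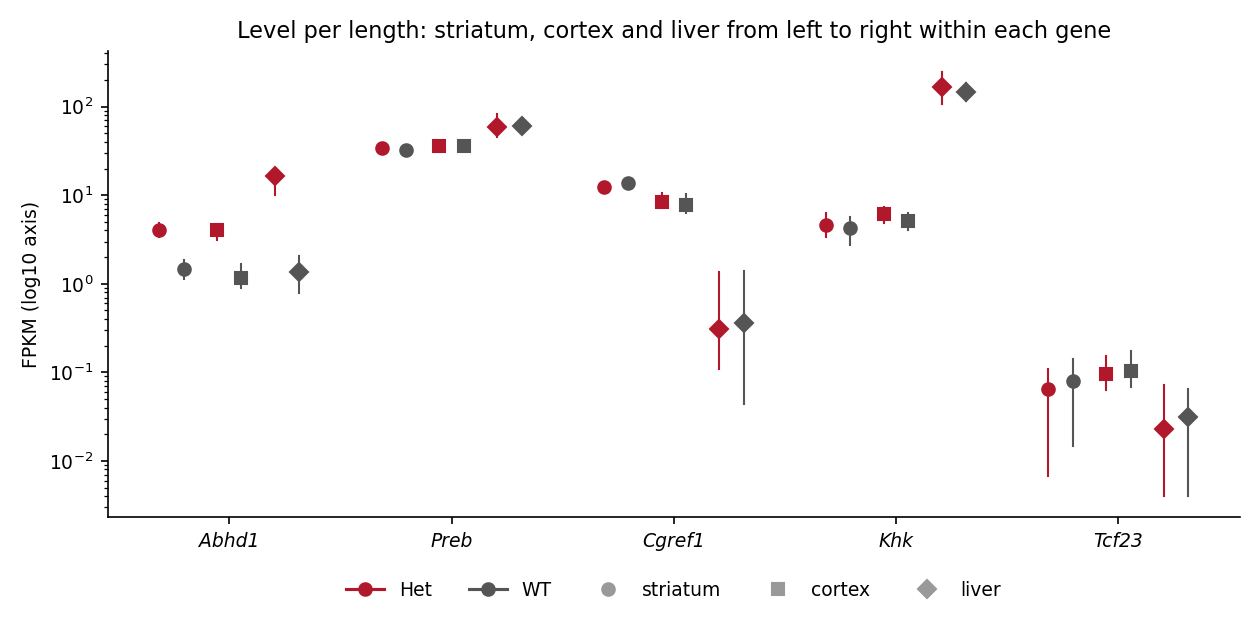
Mean FPKM of each gene on a log10 axis for Het (red, left of each pair) and wild type (grey), with striatum as circles, cortex as squares and liver as diamonds and lines from the lowest to the highest library, cut at the lower end where a library was at 0. Abhd1 averages 16.4 FPKM in Het and 1.34 FPKM in wild-type livers, while Khk averages 166 FPKM in Het and 148 FPKM in wild-type livers.

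Differences between wild-type tissues were tested with the animal as a block, and 66.3% of 17596 genes were called between striatum and cortex and 93.3% between liver and cortex. These fits kept the wild-type brain libraries high in markers of another tissue, and no tissue fit without them was made. Against cortex, striatum had more Cgref1, by 0.79 ± 0.17 (SE) on the log2 scale, and more Abhd1, by 0.32 ± 0.09, and less Khk (-0.26 ± 0.08) and Preb (-0.11 ± 0.04), with edgeR adjusted p-values of 8.44e-05, 0.00302, 0.00818 and 0.0331. Leaving out 1 animal at a time gave 3 to 4 genes called, and the call that was lost was that of Preb, without neo-out female 3 (log2 difference -0.104) or 4 (-0.103), neo-in female 4 (-0.101) or neo-in male 3 (-0.0983) or 4 (-0.106). For Tcf23 the difference was -0.40 ± 0.21 with an edgeR adjusted p of 0.101, while limma on log2(FPKM + 0.1) gave -0.182 with an adjusted p of 0.0446. Liver had more Khk than cortex by 6.25 ± 0.09 and less Cgref1 (-3.57 ± 0.22), with edgeR adjusted p-values of 6.37e-37 and 1.55e-17. Preb was higher in liver by 1.35 ± 0.05, with an edgeR adjusted p of 1.99e-25.

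Abhd1 was higher in liver by 1.11 ± 0.09 (edgeR adjusted p 1.69e-13), but this depended on how tissues were scaled to each other. The median of all genes between liver and cortex was -0.23 in this fit and -1.03 on log2(FPKM + 0.1), where Abhd1 had a difference of 0.16 ± 0.09 and a limma adjusted p of 0.0799. Relative to the median of all genes, Abhd1 was higher in liver by 1.34 in the count fit and by 1.19 in the FPKM fit. Abhd1 shared reads with Preb, itself higher in liver by 1.35, and the part of these reads in the Abhd1 difference was not tested. Tcf23, which failed the filter on low counts in liver and entered this fit through the brain libraries, had a difference of -0.75 ± 0.24 (SE), given with no test, and lay -0.52 from the median of all genes in the count fit and 0.41 above it in the FPKM fit.

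The transcript lengths implied by count, FPKM and library total gave a readout that the choice of genes did not use. For Preb the implied length had a median of 1853 bases in Het and 1887 bases in wild-type striatum, 1795 and 1828 bases in Het and wild-type cortex, and 1427 and 1433 bases in Het and wild-type liver, with brain and liver ranges apart. For Khk it was 1052 and 1014 bases in Het and wild-type striatum, 988 and 1011 bases in Het and wild-type cortex, and 1389 and 1390 bases in Het and wild-type liver. Het and wild-type ranges overlapped in each tissue for both genes. Abhd1 stayed between 1212 and 1487 bases in all libraries, Cgref1 at 1328 and Tcf23 close to 4101 bases. No test was made of these lengths, which also depend on how the authors set effective length.

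Whether the neo cassette line changed the Het effect was tested as the difference of the Het against wild-type contrast between lines, neo-out minus neo-in. No gene of the 5 was called, against 0.00565% of all genes in striatum, 0% in cortex and 0.835% in liver by edgeR. At an unadjusted p under 0.05 the count was 0 in striatum, 0 in cortex and 1 in liver, and DESeq2 called 0 in each tissue. For Abhd1 the line difference was -0.01 ± 0.13 (SE) in striatum, 0.11 ± 0.16 in cortex and 0.35 ± 0.16 in liver. The liver value had an unadjusted p of 0.0327 and an adjusted p of 0.33 by edgeR, and leaving out any 1 library gave 0.27 to 0.41. In cortex 912 of 17444 genes had an unadjusted p under 0.05 in this test, and DESeq2 called 7.

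Abhd1 and Cgref1 averaged lower in neo-out than in neo-in wild-type livers, a comparison in which 9.36% of all genes were called. Abhd1 averaged 1.52 ± 0.35 CPM in neo-out and 1.98 ± 0.21 CPM in neo-in wild-type livers (SD, n = 8 each), a log2 difference of -0.39 ± 0.12 (SE) with an edgeR adjusted p of 0.037. Ranges overlapped, at 1.16 to 2.16 CPM in neo-out and 1.69 to 2.35 CPM in neo-in wild types. The call did not hold in all alternatives: it was past the threshold in 21 of 32 fits that left out 1 liver library, with edgeR adjusted p-values from 0.0103 to 0.0864, and in 3 of 7 other alternatives. It was lost with no filter on low counts, with only the groups compared, with sex left out and on log2(FPKM + 1), where the difference was -0.274, and also without any 1 of the neo-out wild-type females 2, 3 and 4 and males 1, 2 and 3, or of the neo-in wild-type females 3 and 4 and males 1, 2 and 4, with log2 differences of -0.408 to -0.337 in those fits. Cgref1 averaged 0.260 ± 0.122 CPM in neo-out and 0.730 ± 0.618 CPM in neo-in wild-type livers, a log2 difference of -1.12 ± 0.36 with an edgeR adjusted p of 0.0444, held in 16 of 32 such fits and in 3 of 7 other alternatives, but not with no filter, only the groups compared, sex left out or the replicate block. Adjusted p-values of Cgref1 ran from 0.0215 to 0.0931 there. The call was lost without any 1 of the neo-out wild-type females 1, 3 and 4 and males 1 to 4, of the neo-in wild-type females 1, 2 and 4 and males 1, 3 and 4, or of neo-out Het female 2, neo-out Het male 4 and neo-in Het female 4, with log2 differences of -1.18 to -0.958. Cgref1 ranges overlapped in wild-type females, at 0.057 to 0.38 CPM in neo-out and 0.089 to 0.36 CPM in neo-in livers. They were apart in males, at 0.23 to 0.38 and 0.65 to 1.94 CPM. The neo-out values rest on 2 to 18 expected counts, and whether the line difference differed between the sexes was not tested. In striatum and cortex no gene of the 5 was called between wild types of the lines, against 0.469% and 1.79% of all genes by edgeR. DESeq2 also called 0, and 0 and 1 had an unadjusted p under 0.05.

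Het animals of the lines were compared in the same way. No gene of the 5 was called between neo-out and neo-in Het animals by edgeR or DESeq2 in any tissue, against 0.378% of all genes in striatum, 1.3% in cortex and 2.6% in liver. At an unadjusted p under 0.05 the count was 1, Cgref1 in liver with a log2 difference of -0.80 ± 0.38 (SE). Abhd1 differences were -0.04 ± 0.09 in striatum, 0.04 ± 0.10 in cortex and -0.04 ± 0.10 in liver.

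Cgref1 was lower in female than in male wild-type livers. Wild-type females held 0.057 to 0.38 CPM in neo-out and 0.089 to 0.36 CPM in neo-in, and wild-type males held 0.23 to 0.38 CPM in neo-out and 0.65 to 1.94 CPM in neo-in (n = 4 each). The log2 difference of female against male, averaged over lines, was -1.35 ± 0.36 (SE) with an edgeR adjusted p of 0.00526, in a comparison where 29.3% of all genes were called. It stayed past the threshold in all 32 fits that left out 1 liver library. Whether the sex difference itself differed between lines was not tested.

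Abhd1 did not pass the adjusted threshold between the sexes in any tissue by edgeR, but did in liver by limma. Its log2 difference of female against male was 0.20 ± 0.10 (SE) in striatum, 0.27 ± 0.12 in cortex and 0.29 ± 0.12 in liver, with edgeR adjusted p-values of 0.424, 0.357 and 0.0708. In liver limma gave 0.398 on log2(FPKM + 0.1) and 0.242 on log2(FPKM + 1), with adjusted p-values of 0.00571 and 0.0357. By edgeR the adjusted p was 0.0265 without neo-in Het male 3 and 0.0328 without neo-out wild-type female 4, with differences of 0.293 and 0.346. In liver, females averaged 1.75 ± 0.36 CPM and males 1.29 ± 0.16 CPM in neo-out wild types, and females 2.06 ± 0.26 CPM and males 1.89 ± 0.14 CPM in neo-in wild types (SD, n = 4 each). Preb, which shared reads with Abhd1, had a difference of -0.205 ± 0.085 (SE) in liver, with an edgeR adjusted p of 0.0686. The part of the shared reads in the Abhd1 difference was not tested. Of the 4 genes tested in liver, 3 had an unadjusted edgeR p under 0.05, namely Cgref1, Abhd1 and Preb. Between the sexes 0.232% of all genes were called in striatum and 0.396% in cortex, and none of the 5 genes was by edgeR or DESeq2, with 1 and 2 of them at an unadjusted p under 0.05. For the difference of the Het effect between females and males, 0 of the 5 genes were called by edgeR or DESeq2 and 0 had an unadjusted p under 0.05. The shares called over all genes by edgeR were 0%, 0% and 0% in striatum, cortex and liver, where 896, 1281 and 1279 genes had an unadjusted p under 0.05 and DESeq2 called 1, 13 and 21.

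Whether animals with more Abhd1 in one tissue also had more in another was tested within groups. Values were centred on line, genotype and sex, and pairs were permuted within these groups 100000 times. Between striatum and liver Pearson's r was 0.44 (two-sided permutation p 0.0294, adjusted 0.362 over 13 relations) and Spearman's rho 0.38 (p 0.0626, adjusted 0.407, n = 31), and r was 0.44 without the 2 animals farthest from the median. Between striatum and cortex r was -0.10 and rho -0.18 (permutation p 0.625 and 0.376, adjusted 0.921 and 0.731, n = 31), and between cortex and liver r was -0.25 and rho -0.19 (permutation p 0.17 and 0.326, adjusted 0.551 and 0.731, n = 32). Abhd1 and Preb had r of -0.43 and rho of -0.31 in liver (permutation p 0.141 and 0.175, adjusted 0.519 and 0.641 over 11 relations, n = 32), and r of -0.40 without the 2 livers farthest from the median of Abhd1. No relation in either family passed an adjusted p under 0.05.

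CAG repeat number was examined in neo-out Het animals, where it ranged from 193 to 208 in females and from 179 to 204 in males. Means were 200.2 repeats in these females and 195.2 in the males, and sex was left out of the correlations. In neo-in Het animals females held 181 to 189 and males 195 to 200 repeats, so sexes formed separate clusters of 4 and no correlation was computed. Abhd1 in neo-out Het liver had a Pearson's r of 0.76 with repeat number (two-sided exact permutation p 0.039, adjusted 0.31 over 14 relations, n = 8) and a Spearman's rho of 0.68 (exact permutation p 0.0705, adjusted 0.494). Without the 2 animals farthest from the median repeat number r was 0.47, so the relation rests in part on them. In striatum r was 0.07 and rho -0.19 (exact permutation p 0.857 and 0.714, adjusted 0.874 and 0.889, n = 7), and in cortex r was -0.13 and rho 0.15 (exact permutation p 0.817 and 0.743, adjusted 0.874 and 0.889, n = 8). Cgref1 in cortex had an r of -0.54 and a rho of -0.68 (exact permutation p 0.0443 and 0.0705, adjusted 0.31 and 0.494, n = 8), and r was 0.09 without the 2 farthest animals.

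Genes whose level followed Abhd1 most closely were taken from 13904 genes tested in all 3 tissues, over 95 libraries. After centring on tissue, line and sex, the highest Pearson's r belonged to Anapc5 (0.62), Arsb (0.56), Gstm4 (0.55), Aplp2 (0.55) and Lrch3 (0.55), and the lowest to Htt (-0.85). Genotype, which chose Abhd1, remained in these values, and libraries of 1 animal share it. None of these 5 genes was among the 5 most like Abhd1 in striatum, cortex or liver alone, where Polr2a (0.96), Tprgl (0.88) and Nr2c1 (0.76) came first. When genotype was centred as well, the highest were Cox18 (0.46), Wnt2 (0.45), Gpd2 (0.44), Ciapin1 (0.43) and Dbhos (0.42), and Khk, Cgref1 and Preb had 0.15, -0.09 and -0.24. 1 of these, Cox18, was also among the 5 most like Abhd1 in striatum alone. These correlations are a description with no test.

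Around Abhd1, 53 other genes start within 1 Mb, and 36 of them passed the filter in striatum, 36 in cortex and 32 in liver. In neo-out striatum 9 of the 36 were called (6 higher, 3 lower; 25.0%) and in neo-in striatum 10 (6 higher, 4 lower; 27.8%), beside the 18% and 19.4% of all genes. Without the libraries high in markers of another tissue 11.1% were called in neo-out and 19.4% in neo-in striatum, beside 8.11% and 14.8% of all genes in the same fit. In cortex 2 were called in neo-out (5.56%) and 3 in neo-in (8.33%), all lower, beside 2.8% and 1.67% of all genes. With the same libraries left out 8.33% were called in neo-out and 2.78% in neo-in cortex, beside 2.43% and 0.809% of all genes. In liver 1 was called in neo-out, lower, and 0 in neo-in, beside 0.533% and 0.539% of all genes. Median log2 differences of these genes were 0.05 in neo-out and 0.04 in neo-in striatum, 0.03 and 0.03 in cortex, and -0.01 and -0.06 in liver, beside medians of all genes within 0.01 of 0. In liver the log2 differences of these other genes lay between -0.24 and 0.80 in neo-out and between -1.34 and 0.48 in neo-in.

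**Figure D5:**
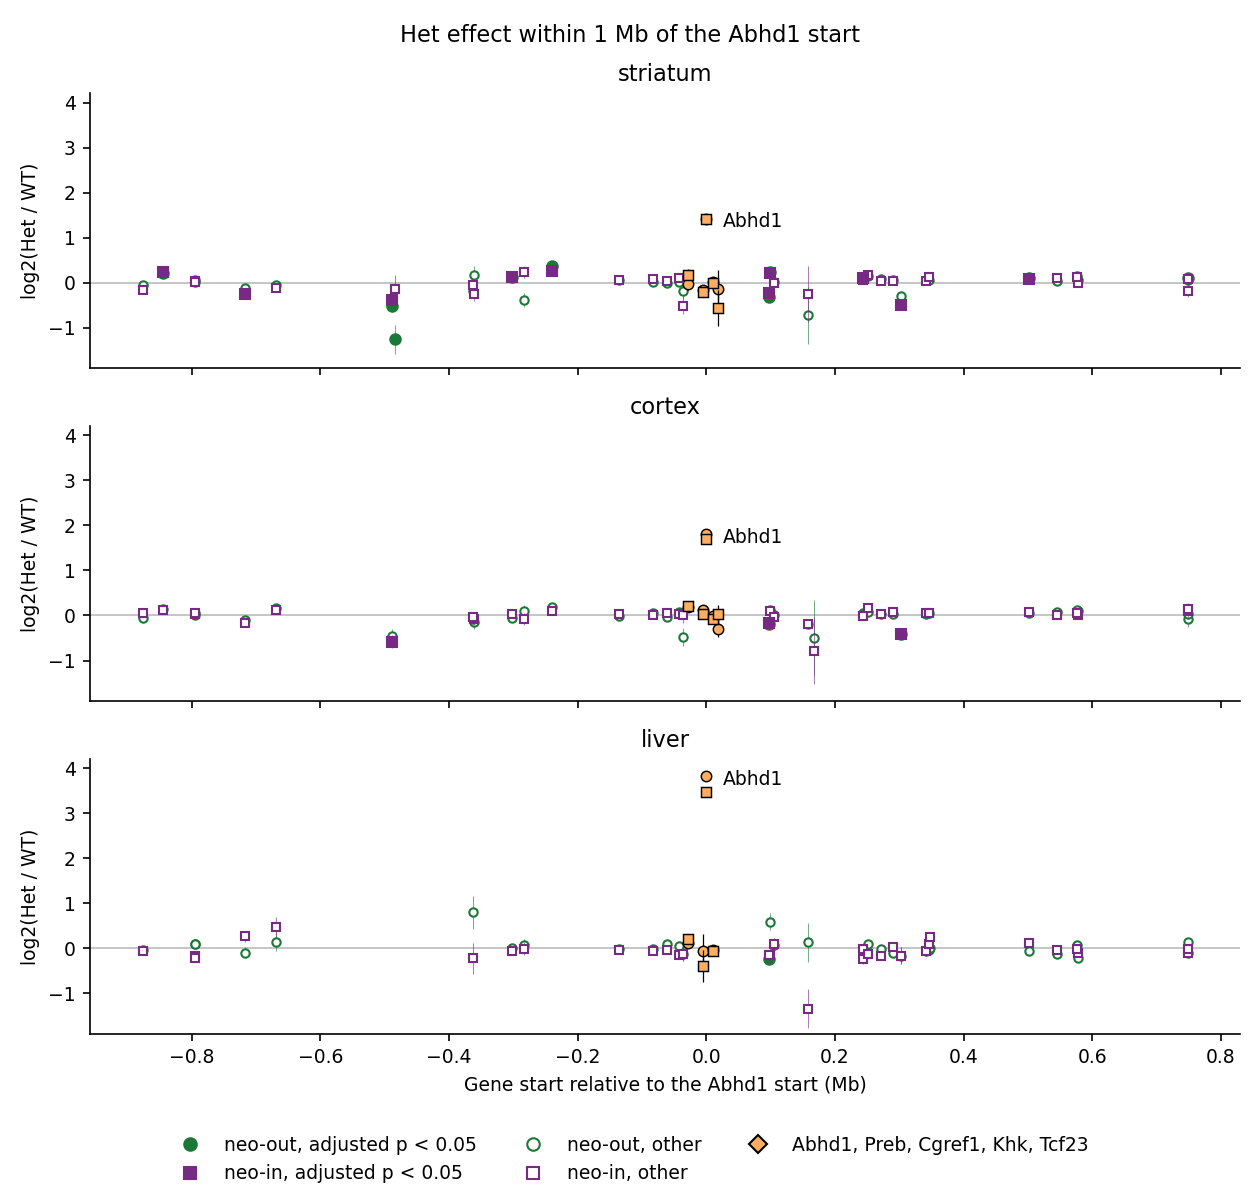
Log2 difference of Het against wild type for each tested gene by its distance from the Abhd1 start in Mb, with SE bars; circles are neo-out, squares neo-in, filled symbols are called at an adjusted p under 0.05, and the 5 genes are orange whether called or not. Abhd1 stands at 3.82 and 3.47 in neo-out and neo-in liver while the other genes of the window lie between -1.34 and 0.80 in liver.

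7 of the 36 neighbours tested were called in both lines in the same direction in striatum, where 11.9% of all genes were, and the 6 with the smallest p-values are named. Without the libraries high in markers of another tissue 3 of these kept the call in both lines, namely Atraid, Dpysl5 and Slc5a6. Atraid, named for its induction by retinoic acid, fell by 0.33 ± 0.04 (SE) in neo-out and by 0.22 ± 0.04 in neo-in striatum, with edgeR adjusted p-values of 1.42e-06 and 0.000132. Dpysl5, a collapsin response mediator of growing neurons, rose by 0.37 ± 0.05 and 0.27 ± 0.05, with adjusted p-values of 5.81e-06 and 0.000242. Slc5a6, the sodium-dependent multivitamin transporter, rose by 0.23 ± 0.06 and 0.22 ± 0.06, Zfp512 by 0.11 ± 0.03 and 0.08 ± 0.03, and Garem2 by 0.22 ± 0.08 and 0.24 ± 0.07 in neo-out and neo-in. Otof, which encodes the vesicle fusion protein otoferlin, fell by 0.52 ± 0.14 and 0.38 ± 0.13. Without those libraries the edgeR adjusted p-values were 0.0804 and 0.0734 for Zfp512 and 0.123 and 0.0621 for Garem2 in neo-out and neo-in, and 0.102 for Otof in neo-in. Leaving out each library kept the neo-in calls of Otof, Zfp512 and Garem2 in 20, 25 and 29 of 31 fits. The neo-out call of Garem2 held in 21 of 31. In other alternatives the neo-in call of Otof held in 3 of 7, and the neo-out call of Garem2 in 5 of 7. Atraid, Dpysl5 and Slc5a6 kept both calls in all 31 fits.

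In cortex 2 neighbours of 36 were called in both lines, where 0.78% of all genes were. Atraid fell by 0.20 ± 0.04 (SE) in neo-out and by 0.17 ± 0.04 in neo-in, with edgeR adjusted p-values of 0.00667 and 0.0351, and Krtcap3 fell by 0.41 ± 0.10 in each line, with adjusted p-values of 0.0271 and 0.0338. With the libraries high in markers of another tissue left out Krtcap3 kept both calls, while Atraid in neo-in had an edgeR adjusted p of 0.261. With only the groups compared neither gene was called in neo-in, and leaving out each library kept the neo-in call of Atraid in 23 and that of Krtcap3 in 22 of 32 fits. The neo-out call of Krtcap3 held in 26 of 32 such fits and in 3 of 7 other alternatives. In liver the 1 neighbour called was Atraid in neo-out, which fell by 0.24 ± 0.05 with an edgeR adjusted p of 0.0405, against -0.15 ± 0.05 and 0.196 in neo-in. That call held in 13 of 32 fits that left out 1 library, and was lost with no filter, with only the groups compared and with sex left out.

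Lists of related genes were described by counts and medians, and are to be read beside the 18% and 19.4% of all genes called in neo-out and neo-in striatum. The shares of all genes were 2.8% and 1.67% in neo-out and neo-in cortex, and 0.533% and 0.539% in liver. Of 19 other ABHD genes, 18 were tested in each tissue, and 11.1% of them were called in neo-out and 16.7% in neo-in striatum, below the share of all genes. In neo-out striatum 1 rose, Abhd14b by 0.18 ± 0.06 (SE), named after its values were seen, and 1 fell, Abhd14a by 0.26 ± 0.06. In neo-in striatum 3 fell, namely Abhd2 by 0.23 ± 0.05, Abhd14a by 0.18 ± 0.05 and Abhd17c by 0.14 ± 0.04. In cortex 0 were called in neo-out and 1 in neo-in, Abhd2, which fell by 0.13 ± 0.03, and in liver 0 were called in either line. Leaving out the libraries high in markers of another tissue, the calls of Abhd14b in neo-out striatum, Abhd14a in neo-in striatum and Abhd2 in neo-in cortex were lost, with edgeR adjusted p-values of 0.0585, 0.0547 and 0.0701. Family medians were -0.03 in neo-out and 0.04 in neo-in striatum, 0.01 and -0.00103 in cortex and 0.00453 and 0.02 in liver.

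For Preb, the 15 other COPII genes were all tested. In striatum 2 rose in neo-out (13.3%) and 3 in neo-in (20%), and 0 fell, a share called near the 18% and 19.4% of all genes. Sec23b, a subunit of the inner coat, rose by 0.19 ± 0.04 (SE) and 0.15 ± 0.04 in neo-out and neo-in striatum, with edgeR adjusted p-values of 0.000818 and 0.00543. Mia3, a cargo receptor at exit sites, rose by 0.14 ± 0.04 in neo-out and Tfg by 0.14 ± 0.04 in neo-in striatum. Without the libraries high in markers of another tissue 0 were called in neo-out and 2 (13.3%) in neo-in striatum. All genes in the same fit were called at 8.11% and 14.8%. There Sec23b in neo-out, Mia3 and Tfg had edgeR adjusted p-values of 0.0594, 0.248 and 0.0631. No COPII gene was called in cortex, beside 2.8% and 1.67% of all genes in neo-out and neo-in. In liver 0 were called in neo-out and 1 in neo-in (6.67%), beside 0.533% and 0.539% of all genes. The gene called was Sec16b, which rose by 0.19 ± 0.04 with an edgeR adjusted p of 0.0428. Its call held in 19 of 32 fits that left out 1 library and in 2 of 7 other alternatives. List medians were 0.07 and 0.03 in neo-out and neo-in striatum, 0.03 and 0.02 in cortex, and 0.05 and 0.08 in liver.

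For Khk, 9 of 11 other genes of fructose metabolism were tested in striatum, 10 in cortex and 11 in liver. In striatum 2 were called in each line (22.2%), near the 18% and 19.4% of all genes. Sord, which makes fructose from sorbitol, rose by 0.30 ± 0.05 (SE) in neo-out and 0.31 ± 0.04 in neo-in striatum, with edgeR adjusted p-values of 1.36e-05 and 5.23e-06. Aldoc, the brain aldolase, fell by 0.17 ± 0.05 in neo-out striatum, and Akr1b3, an aldose reductase, rose by 0.11 ± 0.04 in neo-in striatum. Aldoc had an edgeR adjusted p of 0.214 without the libraries high in markers of another tissue. Akr1b3 kept its call in 18 of 31 fits that left out 1 library and in 3 of 7 other alternatives. None was called in cortex or liver, where 2.8% and 1.67% (cortex) and 0.533% and 0.539% (liver) of all genes were in neo-out and neo-in. Medians in liver were 0.15 in neo-out and 0.07 in neo-in, beside medians of all genes within 0.01 of 0.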

How the data were processed

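The table the authors deposited gives, per gene and library, expected counts, which need not be whole (27.4% of values above 1 were not), and FPKM values, normalized by the authors to length and depth. Alignment counts per library and the CAG repeat number, a value of its own kind whose sizing method no source here states, were deposited beside them, per the file headers. Tissue was flash frozen, per the labels' protocols. The submitters' processing notes name CASAVA 1.8.2 and mm10; the sources used here do not give the counter, annotation or strandedness.

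Genes were named with GENCODE M21 on GRCm38 (37607 of 39179 matched). Expected counts were rounded, filtered with filterByExpr of edgeR 4.0.16, scaled by TMM and tested per tissue by the quasi-likelihood test over all groups of line, genotype and sex, with Benjamini-Hochberg adjustment over all genes and a threshold of 0.05. Wild-type tissues were compared with the animal as a block. Correlations used log2 CPM with a prior count of 2. The procedure was tested on simulated data. Alternatives used DESeq2 1.42.0, no filter, sex left out, only the groups compared, limma 3.58.1 on log2(FPKM + 0.1) and log2(FPKM + 1), a replicate block, other windows and each library left out. The Abhd1 and Preb sum and the set without libraries high in markers of another tissue were chosen after seeing the data. Replicates are separate animals, and no pair of libraries within a group agreed to within counting noise (lowest mean chi-square per gene 4.14 over 141 pairs).

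The genes and lists were chosen with earlier results of these data known. Named genes are the 5, Htt, up to 6 neighbours within 1 Mb called in both lines in the same direction, up to 3 called genes per list and tissue, and the 5 genes most like Abhd1.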

Additional observations from a re-analysis of the deposited data

Results flagged for a closer look

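In 56 groups of 7 or 8 libraries, 3 held a library far from the rest by its gap to the nearest other, set against the group's range; chance gives about 1 in 20 groups. Abhd1 in neo-in Het liver was lowest in male 3, at 13.8 CPM against 20.5 to 25.5 CPM in the others. Cgref1 in neo-out Het cortex was lowest in female 4, at 9.54 CPM against 10.55 to 11.3 CPM. Tcf23 in neo-out Het cortex was highest in female 3, at 0.5679 CPM against 0.265 to 0.400 CPM.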

How the results depend on the processing

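On log2(FPKM + 1) the Het against wild-type difference of Abhd1 was smaller, at 1.04 and 1.07 in neo-out and neo-in striatum, 1.24 and 1.19 in cortex and 3.0 and 2.79 in liver, since a pseudocount shrinks low genes. Leaving out each library gave 1.36 to 1.44 and 1.37 to 1.49 in neo-out and neo-in striatum, 1.74 to 1.85 and 1.64 to 1.77 in cortex, and 3.77 to 3.88 and 3.42 to 3.56 in liver.

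Differences of Abhd1 near 0 changed sign, and the cause was not tested. The line difference in striatum was 0.00431 with sex left out and 0.0248 without the libraries high in markers of another tissue, -0.0777 to 0.0355 leaving out each library, and in cortex -0.0202 without the marked libraries. Between wild types of the lines it was 0.0957 in cortex without those libraries, with leave-one-out ranges of -0.123 to 0.00973 in cortex and -0.0654 to 0.0376 in striatum. Between Het animals the ranges were -0.0897 to 0.00279 for striatum, -0.00284 to 0.0925 for cortex and -0.125 to 0.00873 for liver. The correlation with CAG repeat number in striatum was -0.0602 on log2(FPKM + 0.1).

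Of the 5 genes, 2 were called between wild-type livers of the lines, but 1 on log2(FPKM + 1), 1 with the replicate block and 0 without a filter, with only the groups compared or with sex left out, and 0 to 2 leaving out each library. Between the sexes in liver 1 was called, 2 with Abhd1 added on either FPKM scale by limma, and 1 to 2 leaving out each library.

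The share of genes near Abhd1 called in striatum was 12.2% in neo-out and 16.3% in neo-in without a filter, 16.7% in each with only the groups compared, and 11.1% in neo-out without the marked libraries, with leave-one-out ranges of 16.7% to 27.8% and 16.7% to 30.6%. In neo-out cortex it was 8.57% by DESeq2, 2.17% without a filter, 11.4% with only the groups compared and 2.78% with sex left out (2.78% to 8.33% leaving out each library). In neo-in cortex it was 12.5% within 0.5 Mb, 2.78% on both FPKM scales and without the marked libraries, 2.17% without a filter and 0% with only the groups compared (0% to 8.33%). In neo-out liver it was 4.76% within 0.5 Mb and 0% without a filter, with only the groups compared or with sex left out (0% to 3.12%), and in neo-in liver the range was 0% to 9.38%.

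Counts over all genes, with their lowest and highest over the alternatives, were 3185 (1484 to 3706) in striatum, 489 (337 to 647) in cortex and 81 (21 to 166) in liver for Het against wild type in neo-out, and 3437 (2708 to 4182) in striatum, 292 (122 to 445) in cortex and 82 (3 to 314) in liver in neo-in. For the line difference they were 1 (0 to 3) in striatum, 0 (0 to 7) in cortex and 127 (23 to 320) in liver. Wild types of the lines gave 83 (8 to 185) in striatum, 312 (65 to 466) in cortex and 1424 (625 to 1694) in liver, and Het animals of the lines 67 (0 to 183) in striatum, 227 (107 to 389) in cortex and 395 (63 to 681) in liver. Female against male wild types gave 41 (10 to 180) in striatum, 69 (11 to 189) in cortex and 4453 (2245 to 6084) in liver.

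Same-numbered libraries did not deviate together (median r of 0.036 in striatum, -0.00618 in cortex and 0.0251 in liver, over 0.1 in 4 of 15, 0 of 16 and 5 of 16 pairs). With the replicate block, Cgref1 between wild-type livers of the lines had an edgeR adjusted p of 0.0614, and counts over all genes for Het against wild type were 3141 and 3390 in neo-out and neo-in striatum, 337 and 185 in cortex and 65 and 81 in liver. Depth limits Tcf23 in all tissues and Cgref1 in liver.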
